A study of Mus musculus with 18 samples.

Results

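Cerebellar granule cells are the small excitatory neurons of the cerebellar cortex, and the entorhinal cortex does not contain them. Their axons, the parallel fibers, form synapses on Purkinje cells. A small group of receptor, adhesion, and synapse genes is close to specific for them in the adult brain, whereas their transcription factors also act in other neurons. The 10 genes described here are Gabra6, Cbln1, Cbln3, Fat2, Barhl1, Neurod1, Pax6, Zic1, Zic4, and Zic5, taken by symbol from the 27782 genes listed. They were chosen by their values in these libraries, since young mouse Y25 and MA mouse MA5 carried high levels of such genes, so the values of Y25 and MA5 are given as a description without a test. All 10 symbols were found, and 9 passed the filter used for tests across genes, a mean of at least 25 over the 18 libraries. Barhl1 had a mean of 18.9 and did not.

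The 18 libraries were bulk RNA sequencing of nuclei sorted by Hoechst and NeuN, a protein of neuronal nuclei, from the medial entorhinal cortex (MEC) of C57Bl/6 mice that had performed the split maze (SM) task. Each library came from a single mouse. The mice were 6 young, 6 MA (the study's middle age group), and 6 aged, and 3 of each 6 were female. Y25 and MA5 are both male, and sex coincides with the recording cohort among young and aged mice. MA mice of both sexes were in the cohort of the young and aged females, so MA males differ from young and aged males in cohort as well as age. Young mice came from a different supplier than MA and aged mice, so age and supplier cannot be told apart in any comparison with young mice. The dissection could, per the study's methods, take in neighboring regions, namely parasubiculum and lateral entorhinal cortex. Values are normalized estimates of gene counts with no correction for gene length, so they are compared between libraries and not between genes. The sequencing depth behind them is unknown. The number of genes above 0 ran from 19910 to 24102 per library. Cortical excitatory markers were present throughout, among them Slc17a7 at 803 or more and Mef2c at 2575 or more in each of the 16 libraries other than Y25 and MA5.

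Gabra6, the α6 subunit of the GABA-A receptor, is the classical marker of mature granule cells. It had a value of 8541 in Y25 and of 20442 in MA5. In the 16 other libraries it lay between 5.19 and 214, with a median of 28.5. No other library came near either of them, and the highest of the 16, A15, held 2.51% of the Y25 value. Y25 stood 300-fold and MA5 717-fold above the median of the 16.

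Cbln3 encodes a cerebellin that granule cells secrete together with Cbln1. It reached 5022 in Y25 and 12248 in MA5, against 2.11 to 218 in the others, with a median of 20.3. Y25 was 247-fold and MA5 602-fold above that median. Cbln1, the cerebellin that bridges parallel fibers to their receptor on Purkinje cells, had 238 in Y25 and 825 in MA5, against 5.06 to 67.1 in the others, with a median of 24.7. Its folds were 9.63 and 33.4. Both genes were thus higher in Y25 and MA5 than in any other library, and for Cbln3 the ratio was far larger.

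Fat2, a giant cadherin of parallel fibers, stood at 3811 in Y25 and 9854 in MA5. The other libraries had 14.9 to 265, with a median of 93.8, so that the folds were 40.6 and 105. Fat2 was under 25 in 1 of the 16 others, whereas Gabra6 was in 7 and both cerebellins in 9.

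Zic1, Zic4, and Zic5 encode zinc finger transcription factors that granule cells keep into adulthood. Zic1 had 728 in Y25 and 1755 in MA5, against 3.03 to 68.1 with a median of 19.5, or folds of 37.4 and 90.2. Zic4 had 284 and 616, against 2.17 to 65.2 with a median of 25.7, or folds of 11.1 and 23.9. Zic5 had 833 and 1377, against 13.8 to 221 with a median of 78.6, or folds of 10.6 and 17.5. All 3 genes were higher in Y25 and MA5 than in the 16 others, and Zic1 by the widest margin.

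Pax6, a homeodomain factor of the granule cell lineage that some forebrain neurons also use, had 663 in Y25 and 1600 in MA5. The others had 33.0 to 195, with a median of 97.7, which gives folds of 6.79 and 16.4. Neurod1, a basic helix-loop-helix factor of granule cells and of many other excitatory neurons, had 1813 in Y25 and 4718 in MA5. The others had 161 to 774, with a median of 477, which gives folds of 3.80 and 9.89. These were the smallest folds of the 10, and both genes were at 33.0 or more in every library.

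Barhl1, a homeodomain factor of granule cell precursors, was the exception. It had 67.6 in Y25 and 70.8 in MA5, with a median of 3.05 in the others, of which 2 were at 0. The young female Y20 had 145.3 and was higher than both. Without Y20, the highest value among the others was the 16.7 of MA3. Y20 also had the highest value of the 16 in several genes that mark the thalamus and midbrain, with 6222 for Lef1 against a median of 237, 7394 for Slc17a6 against 783, and 1305 for Gata3 against 83.8. The part of these cells in its Barhl1 value was not tested.

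**Figure D1:**
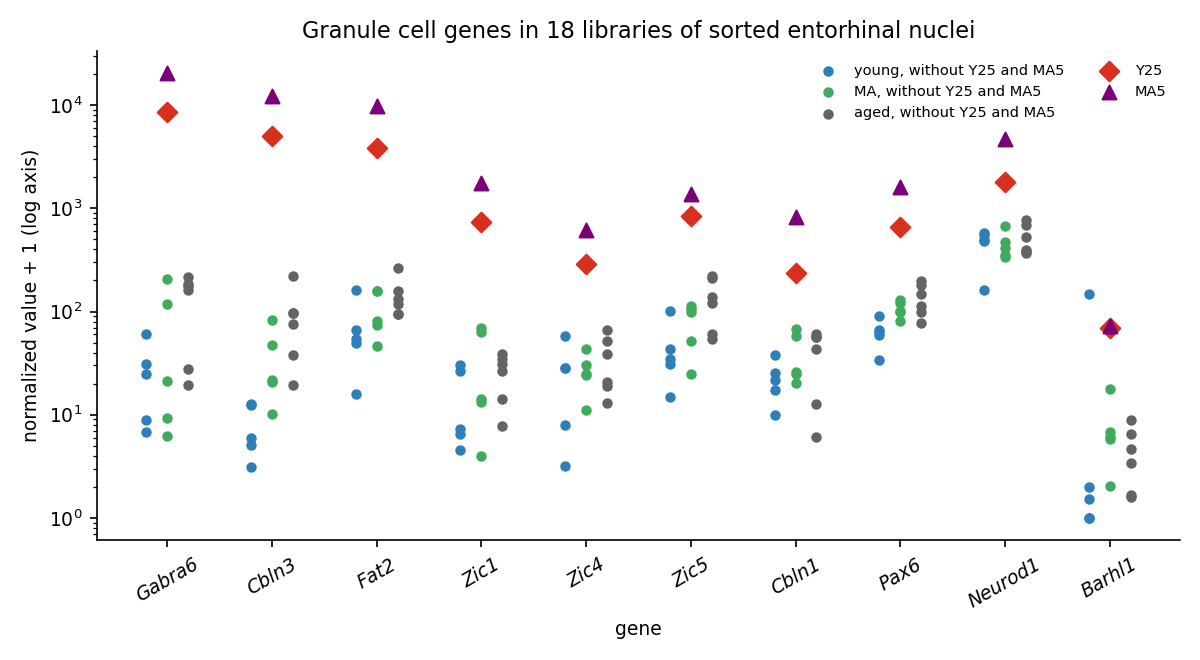
Normalized value + 1 on a log axis for each of the 10 genes, with 1 point per library, coloured by age group. Y25 (diamonds) and MA5 (triangles) lie above all 16 other libraries in 9 genes, and in Barhl1 the young library Y20 lies above both at 145.3.

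Y25 and MA5 were both above all 16 others in 9 of the 10 genes. Over the 17985 genes tested, 378 did the same, which is 2.10%. The count of the 10 follows from how they were chosen, and nothing is read from it. Both libraries were below all 16 others in 116 genes tested, or 0.645%, and in none of the 10. The median gene stood at 0.997 times the median of the 16 in Y25 and at 0.994 times in MA5, as the scaling by size factors sets it.

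The genes lie on 5 chromosomes, with coordinates given on GRCm39 from GENCODE M39. Gabra6 is at chr11:42197264-42211910 and Fat2 at chr11:55141435-55227483, both on the minus strand. Cbln1 is at chr8:88195033-88199261, Cbln3 at chr14:56116370-56121849, Neurod1 at chr2:79282865-79287294, and Barhl1 at chr2:28797691-28806680, all on the minus strand. Pax6 is at chr2:105499234-105530952 on the plus strand. Zic1 at chr9:91240111-91247863 on the minus strand and Zic4 at chr9:91244149-91271402 on the plus strand overlap over 3715 bases. Zic5 at chr14:122694190-122703089 on the minus strand lies 8737 bases from Zic2, which points away from it. Neurod1 overlaps Cerkl on the same strand over 4265 bases, and Pax6 overlaps Elp4 on the other strand over 9940 bases. Cbln1 overlaps the long noncoding RNA gene Gm19872 over 4229 bases and Fat2 overlaps Gm74198, another, over 4596 bases, both on the other strand. Neurod1, Pax6, Zic4, and Zic5 also overlap such genes on the other strand. Since the values include introns and no strand setting is known, reads may have been split between overlapping genes. The values of the genes named here are uncertain to that extent.

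The promoters of Gabra6, Cbln3, and Fat2 are shown because these genes had the largest folds in Y25 and MA5. Each runs from 250 bases before to 50 bases from the start of the Ensembl canonical transcript, on the minus strand of GRCm39, read 5′ to 3′. Capitals mark matches to TTGGCA, a recognition motif of the nuclear factor I (NFI) family, which acts in granule cell maturation. It was searched on both strands, and TGCCAA is its reverse complement.
Gabra6, chr11:42211861-42212160: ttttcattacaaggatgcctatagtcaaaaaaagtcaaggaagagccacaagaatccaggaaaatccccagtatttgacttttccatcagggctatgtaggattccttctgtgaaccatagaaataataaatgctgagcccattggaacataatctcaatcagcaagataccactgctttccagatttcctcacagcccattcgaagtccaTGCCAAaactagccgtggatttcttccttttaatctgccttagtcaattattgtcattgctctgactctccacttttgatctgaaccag
Cbln3, chr14:56121800-56122099: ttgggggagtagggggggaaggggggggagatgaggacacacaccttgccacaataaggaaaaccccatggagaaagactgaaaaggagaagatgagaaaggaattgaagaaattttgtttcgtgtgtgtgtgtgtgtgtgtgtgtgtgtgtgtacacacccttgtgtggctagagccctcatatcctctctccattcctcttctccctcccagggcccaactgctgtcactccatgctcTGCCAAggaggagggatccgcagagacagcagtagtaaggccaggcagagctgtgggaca
Fat2, chr11:55227434-55227733: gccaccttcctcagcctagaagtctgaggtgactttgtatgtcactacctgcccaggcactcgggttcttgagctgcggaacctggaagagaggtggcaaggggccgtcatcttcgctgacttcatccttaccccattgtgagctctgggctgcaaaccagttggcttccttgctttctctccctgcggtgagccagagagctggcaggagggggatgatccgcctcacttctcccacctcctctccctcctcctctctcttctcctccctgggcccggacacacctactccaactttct

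The match in Gabra6 begins 39 bases before the start and that in Cbln3 begins 10 bases before it. Zic5 had a match as well, 132 bases before its start, so that 3 of the 10 promoters held TTGGCA, against 14.0% of 21770 promoters of protein-coding genes. Of the E-boxes, to which Neurod1 and related factors bind, CAGATG was in 1 of the 10 promoters, that of Neurod1, against 15.2% of all, and CAGCTG was in 0 of the 10 against 14.9% of all. CCTGCTG, a motif of the ZIC factors, was in 0 of the 10 against 10.1%. These matches describe the letters in these windows only.

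To set Y25 and MA5 side by side, the excess of a gene in a library was taken as its value minus the median of the 16 others. The excess of MA5 was larger than that of Y25 in all 10 genes, with a median ratio of 2.45 (SD 0.733 over the 10 genes). For Gabra6 the ratio was 2.40, for Cbln3 2.44, for Zic1 2.45, for Zic4 2.28, for Fat2 2.63, and for Pax6 2.66. These 6 genes fell between 2 and 3, although their excess ranged from 259 to 8512 in Y25. The other 4 lay further out, with 1.05 for Barhl1, 1.72 for Zic5, 3.18 for Neurod1, and 3.76 for Cbln1. With 1 library each there is no replicate error on these ratios, and the SD describes the spread over genes.

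Summed over the 10 genes, the values made up 0.0914% of all values in Y25 and 0.238% in MA5. In the 16 others the share was 0.00214% to 0.00795%, with a median of 0.00411%. Whether a library held more nuclei of a cell type or more RNA per nucleus cannot be told apart in bulk samples.

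**Figure D2:**
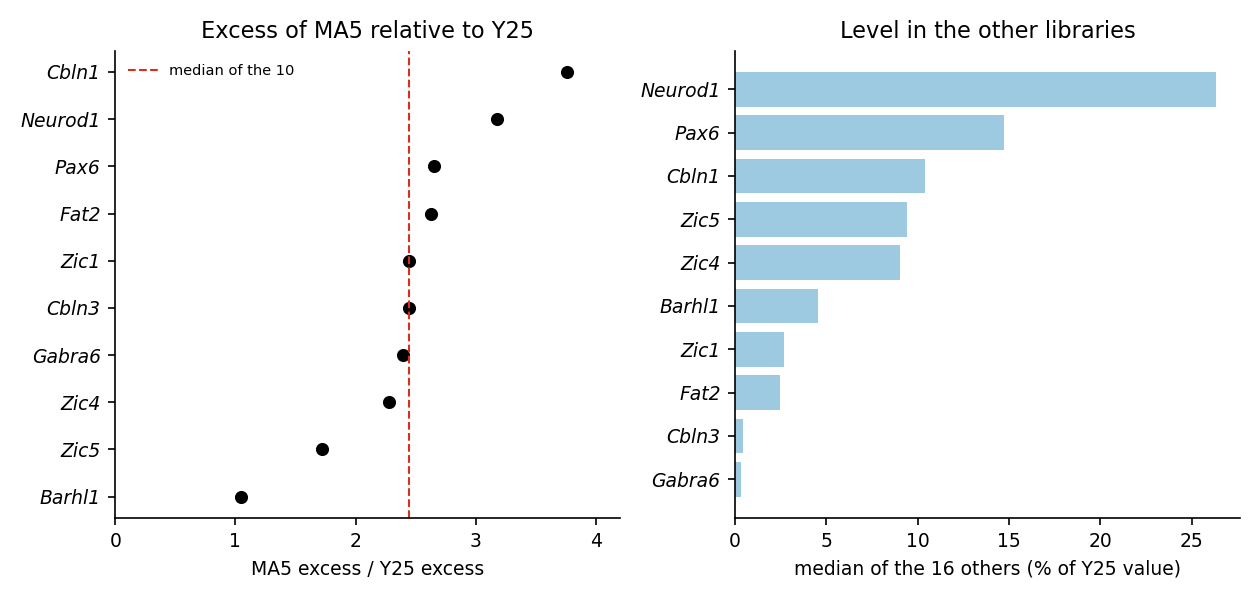
Left, the excess of MA5 over the median of the 16 other libraries divided by the same excess of Y25, for each gene, with the median of 2.45 dashed. Right, bars of the median of the 16 others as a percent of the Y25 value, which runs from 0.334% for Gabra6 to 26.3% for Neurod1.

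The median of the 16 others, as a percent of the Y25 value, depends on the level in Y25 as well as on that in the others. It was 0.334% for Gabra6, 0.405% for Cbln3, 2.46% for Fat2, 2.67% for Zic1, and 4.52% for Barhl1. It was higher for Zic4 with 9.05%, Zic5 with 9.44%, Cbln1 with 10.4%, Pax6 with 14.7%, and Neurod1 with 26.3%. As a percent of the MA5 value it was 4.18%, 5.71%, 2.99%, 6.11%, and 10.1% for these 5 genes. Zic4 and Cbln1 thus came below Barhl1, which had 4.32%. Gabra6 and Cbln3 had the lowest percent and Neurod1 the highest against either library. The median of the 16 others was at or above 25, the minimum used for tests, in 6 of the 10 genes and below it in 4. This count says how many genes carried signal on the deposited scale and does not order the genes by level, since longer genes, introns included, collect more reads. Zic4 with 25.7 was just inside this limit and Cbln1 with 24.7 just outside. Within single genes, Neurod1 and Pax6 were never under 25 in the 16 others, whereas Gabra6 was under 25 in 7, Zic1 in 8, Cbln3 in 9, and Barhl1 in 15 of them.

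Gabra6 was then used as a yardstick. In Y25 and MA5 each gene had a certain excess per unit of Gabra6 excess, 0.593 on average for Cbln3 and 0.182 for Neurod1. Multiplying by the Gabra6 value of another library gives the level that the gene would have there if all of its Gabra6 came with the mixture seen in Y25 and MA5. For Cbln3 this level was 112% of the measured value in the median library, and at least 50% in 14 of 16 libraries. For Fat2 it was 26.7% in the median library and ran from 1.65% to 93.2%, with 7 libraries at 50% or more and 6 under 10%. For Zic1 it was 21.4% in the median library and 52.6% at most. It was 7.06% for Cbln1, 6.04% for Zic5, 6.01% for Barhl1 over the 14 libraries where it was above 0 (159% at most), 4.48% for Zic4, and 4.14% for Pax6. For Neurod1 it was 1.57% in the median library and 10.5% at most. For Pax6 it reached 14.7%, whereas for Cbln3 it ran from 15.6% to 872%. On this scale the level that follows Gabra6 was a small part of the measured Neurod1 and Pax6 and, in the median library, as large as the measured Cbln3.

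Among the 16 others, Gabra6 was at 116 or more in 6 libraries and at 59.6 or less in 10. The 6 were MA3 with 116, MA6 with 204, A15 with 214, A18 with 183, A20 with 161, and A24 with 177.1, so 2 were MA, 4 were aged, and 0 were young. MA3 and MA6 are the MA males left without MA5, and the 3 MA females had 5.19 to 20.3. Among the aged, A15 and A18 are female and A20 and A24 male. Cbln3 was at 45.9 or more in the same 6 libraries, with 45.9 in MA3, 82.2 in MA6, 218 in A15, 94.7 in A18, 74.4 in A20, and 96.6 in A24. In the other 10 it was at 37.3 or less. A15 was among the highest 3 of the 16 in 8 of the 10 genes, more often than any other library, with A18 next in 5 genes.

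The question whether the genes rise and fall together at these low levels was asked over the 16 others, since Y25 and MA5 would set any coefficient by themselves. Pearson correlations of log2(value + 1) were computed for the 45 pairs, with permutation tests over libraries (two-sided, 100000 permutations, Benjamini-Hochberg over the 45 pairs). At an adjusted p under 0.05, 11 pairs were called, 10 positive and 1 negative, and by Spearman's rho 5 were called, all among the positive pairs. The share of pairs called among other genes was not computed. The count therefore has no background beside it and does not set these genes apart from others. Gabra6 rose with Zic1 (r = 0.84, permutation p = 0.00014, 0.0063 after adjustment), and by rank with rho = 0.84 (permutation p = 0.00018, 0.0081 after adjustment). Gabra6 also rose with Cbln3 (r = 0.81, permutation p = 0.00035, 0.00787 after adjustment), and by rank with rho = 0.78 (permutation p = 0.00075, 0.0104 after adjustment). When the 2 libraries with Gabra6 farthest from its median were left out, r was 0.81 with Zic1 and 0.75 with Cbln3. Between Gabra6 and Neurod1, r was -0.07 (permutation p = 0.822, 0.841 after adjustment) and rho was -0.12 (permutation p = 0.649, 0.73 after adjustment). The other pairs called by both coefficients were Cbln1 with Zic1 at r = 0.72, Cbln3 with Pax6 at 0.70, and Cbln3 with Zic1 at 0.68.

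These relations were recomputed within parts of the 16 libraries, as values without a test. For Gabra6 and Zic1, r was 0.79 in the 9 females and 0.90 in the 7 males. For Gabra6 and Cbln3, r was 0.68 in the females and 0.97 in the males. For Gabra6 and Zic1, r was 0.86 in the 5 young, 0.88 in the 5 MA, and 0.91 in the 6 aged libraries. For Gabra6 and Cbln3 it was 0.47, 0.91, and 0.92, so it was lowest in the young. Since Gabra6 leaves a gap between 59.6 and 116, the 2 sides were also taken alone. In the 10 libraries on the low side r was 0.64 for Zic1 and 0.18 for Cbln3, and in the 6 on the high side it was -0.31 for Zic1 and 0.82 for Cbln3. A split by Gabra6 narrows its range on each side, so nothing is read from these values against those over all 16. With the means of the age groups removed, 5 of the 45 pairs were called: Gabra6 with Zic1, Cbln3, and Cbln1, and Zic1 with Cbln1 and Cbln3. Cbln3 with Pax6 was no longer among them, at r = 0.24 (permutation p = 0.366, 0.568 after adjustment). The negative pair, Barhl1 with Neurod1, had r = -0.66 (permutation p = 0.0114, 0.0467 after adjustment) and rho = -0.40 (permutation p = 0.128, 0.304 after adjustment). Without Y20, r was -0.25, and no negative pair was called in 12 of the 16 repeats that each left out 1 library. Within the 9 females r was -0.79 and within the 7 males -0.69. It was -0.98 in the 5 young, -0.90 in the 5 MA, and 0.52 in the 6 aged libraries. The females and the young include Y20.

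**Figure D3:**
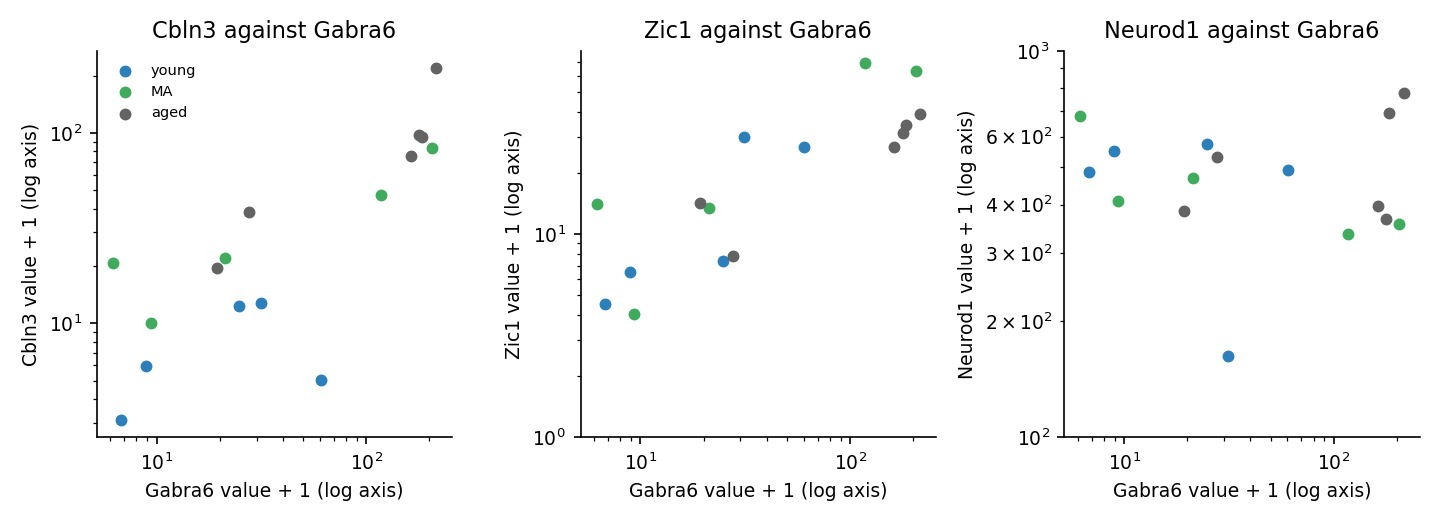
Values + 1 on log axes of Cbln3, Zic1, and Neurod1 against Gabra6 in the 16 libraries other than Y25 and MA5, coloured by age group. Cbln3 (r = 0.81) and Zic1 (r = 0.84) were higher where Gabra6 was higher, and for Neurod1 r was -0.07.

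The age groups were compared with limma on log2(value + 1) with a term for sex. Calls needed an adjusted p under 0.05 and a log2 fold change of 0.5 or more in either direction. In aged against young mice 0 of the 9 genes tested were called, with 0.0612% of all genes called, and 0 had an unadjusted p under 0.05, against 5.36% of all genes. In MA against young mice 0 of 9 were called against 0.0778% of all genes, and 0 had an unadjusted p under 0.05, against 3.71%. In aged against MA mice 0 of 9 were called against 0% of all genes, and again 0 had an unadjusted p under 0.05, against 2.12%. Exact permutation of the mice, over all 10 genes, gave 0 genes with p under 0.05 in each of the comparisons. Over all genes tested the share was 5.25% in aged against young, 4.01% in MA against young, and 2.65% in aged against MA mice. The spread of the young and MA groups was set by Y25 and MA5. For Gabra6 the mean of young mice was 1445 ± 3476 (SD, n = 6), against 25.5 ± 21.7 (SD, n = 5) without Y25.

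Without Y25 and MA5, 0 of the 9 genes were again called in each comparison by limma, against 0.0612% of all genes in aged against young, 0.0500% in MA against young, and 0% in aged against MA mice. Of the 10, Cbln3 alone had aged and young values that did not overlap. It had 11.8, 4.05, 4.94, 2.11, and 11.3 in the 5 young mice and 218, 37.3, 94.7, 18.6, 74.4, and 96.6 in the 6 aged mice. Such a gap, with the aged group above, was found in 0.156% of all genes tested. The log2 fold change was 3.34 ± 0.73 (SE), with an exact permutation p of 0.00433 (two-sided, where the smallest possible is 0.00216) and an adjusted p over all genes of 0.344 in limma. Cbln3 was higher in aged mice in both sexes, with a mean log2 difference of 3.67 in 3 against 3 females and 3.08 in 3 against 2 males.

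Pax6 had 33.0, 62.8, 58.6, 65.6, and 89.4 in the young and 180, 97.7, 147, 113, 76.9, and 195 in the aged mice, with overlap only through the 76.9 of A20 and the 89.4 of Y28. Its log2 fold change was 1.09 ± 0.35 (SE), with an exact permutation p of 0.00866 and an adjusted p in limma of 0.885. Zic5 lay between 13.8 and 100.9 in the young and between 52.8 and 221 in the aged mice, with a log2 fold change of 1.61 ± 0.56 (SE, exact permutation p = 0.0195, adjusted p in limma 0.885). Fat2 lay between 14.9 and 159.9 in the young and between 93.3 and 265 in the aged mice, with a log2 fold change of 1.26 ± 0.51 (SE, exact permutation p = 0.0260, adjusted p in limma 0.885). Gabra6 lay between 5.77 and 59.6 in the young and between 18.3 and 214 in the aged mice, with a log2 fold change of 2.16 ± 0.97 (SE, exact permutation p = 0.0325, adjusted p in limma 0.885). In the other 5 genes the exact p was 0.141 or more, so 5 of 10 were under 0.05, against 4.38% of all genes with a mean of at least 25 in the 16 libraries. With the mean of at least 25 taken over the 16 libraries, a filter chosen after seeing the data, Zic1 also fell below the filter. Of the 8 genes left, 5 had an unadjusted p under 0.05 in limma, against 5.11% of all genes tested. Under quantile normalization the differences of these 5 were smaller. They were 2.57 ± 0.86 (SE) for Cbln3, 1.45 ± 1.10 for Gabra6, 1.23 ± 0.48 for Zic5, 0.98 ± 0.49 for Fat2, and 0.75 ± 0.41 for Pax6. The difference in Pax6, Zic5, and Fat2 was larger in females, with mean log2 differences of 1.45, 2.20, and 2.04 against 0.63, 0.83, and 0.28 in males. That of Gabra6, Zic1, and Cbln1 was larger in males, with 2.67, 1.99, and 1.11 against 2.01, 0.33, and 0.04 in females. In 2 genes the direction turned. Neurod1 was at 0.90 in females and at -0.46 in males, and Barhl1 was at -0.49 in females and at 1.22 in males. With 3 against 2 males, a gap between the groups is common by chance, so none is read. Barhl1 was also near 0 in males, at 0 and 0.524 in the young and 0.606 to 7.90 in the aged. These differences between the sexes were not tested. Among the 6 aged mice A15, A18, A20, and A24 were the libraries with Gabra6 over 100, and the part of granule cell nuclei in the differences of the other genes was not tested.

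In MA against young mice without Y25 and MA5, Cbln3 and Pax6 had an exact permutation p under 0.05 (2 of 10, against 3.48% of all genes), at 0.0238 and 0.0159, with log2 fold changes of 2.05 ± 0.76 and 0.80 ± 0.37 (SE) and an adjusted p of 0.979 for both in limma. By limma, 2 of the 8 had an unadjusted p under 0.05, against 3.55% of all genes. In aged against MA mice 0 of the 10 had an exact p under 0.05, against 2.69% of all genes, and by limma 0 of the 8 had an unadjusted p under 0.05, against 2.25% of all genes. In MA against young mice, within 3 and 3 females, the mean log2 difference was -1.26 for Gabra6 and -0.93 for Zic1, with overlap. Within 2 and 2 males, which also differ in cohort, it was 3.58 and 3.52. For Neurod1 it was 0.52 in the females and -0.61 in the males. With so few males a gap between the groups is common by chance, so none is read. The differences between the sexes in these genes were not tested. The comparisons with young mice share the same 5 young libraries. The direction seen without Y25 and MA5 was chosen for description after the values were seen, and 30 exact tests were computed with all libraries and 30 more without Y25 and MA5.

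**Figure D4:**
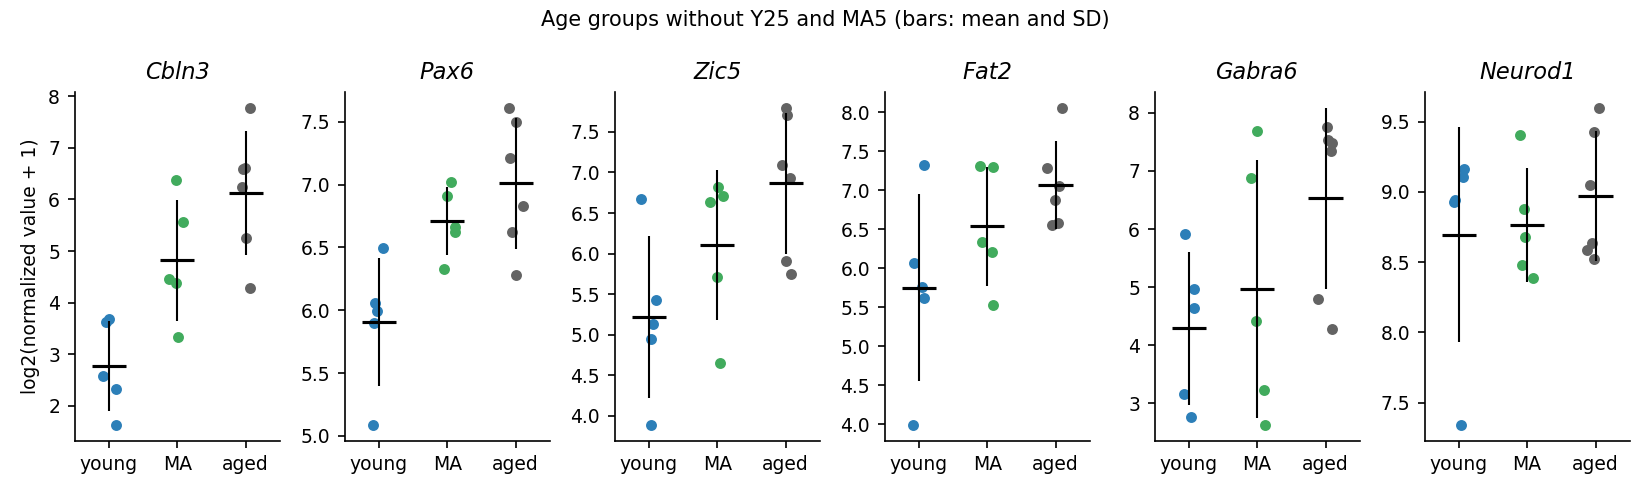
log2(value + 1) of 6 of the genes by age group without Y25 and MA5, with 1 point per library and bars for the mean and SD. Cbln3 did not overlap between the 5 young and the 6 aged libraries, and in the other 5 genes the groups overlapped.

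Other genes that granule cells express showed a mixed picture. From a list of 14, 5 had Y25 and MA5 both above all 16 others, against 2.10% of all genes tested. En2 of these 5, as well as Pcp2 and Eomes below, had means under 25 in the 16 others and passed the filter only through Y25 and MA5, so the counts are a description. With the mean taken over the 16 others, 4 granule cell, 3 Purkinje cell, and 0 unipolar brush cell genes remained. Grin2c, the NMDA receptor subunit of mature granule cells, had 952 in Y25 and 2387 in MA5, against 16.1 to 200.2 in the others. Gabrd, the GABA-A receptor subunit that pairs with Gabra6, had 2275 and 4506, against 507 to 2133. Chn2, a Rac-regulating protein, had 7795 and 26777, against 319 to 2091. En2, a homeobox gene of the midbrain and cerebellum, had 129 and 280, against 0 to 58.0. Reln, the secreted reelin that granule cells share with layer II entorhinal neurons, had 10319 and 15754, against 2953 to 6512. The 9 that did not pass, Kcnk9, Etv1, Cadps2, Calb2, Neurod2, Rbfox3, Slc17a7, Tiam1, and Car4, had medians between 244 for Calb2 and 5879 for Tiam1 in the 16 others. The median fold of the 14 genes was 1.61 in Y25 and 3.34 in MA5.

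Some markers of other cerebellar cells were also high in Y25 and MA5, and others were not. Of 8 Purkinje cell genes, 4 were above all others in both libraries, against 2.10% of all genes: Pcp2, Car8, Ppp1r17, and Slc1a6. Pcp2, the most specific of them, had 250 in Y25 and 508 in MA5 against 0 to 31.4 in the others, of which 7 were at 0. Car8 had 1909 and 7725, against 42.8 to 874. Skor2, Itpr1, Calb1, and Rora were not above all others in both. Of 4 Bergmann glia genes, Gdf10 with 358 and 550 against 30.7 to 205 passed, and so did Aqp4, which is also on the astrocyte list. Eomes, a factor of unipolar brush cells, had 305 and 296 against 0 to 50.6, and it was the 1 of 5 genes of that list to pass. Of the list of molecular layer interneurons and Golgi cells 0 of 5 genes tested passed. The summed level of the Purkinje list was 27366 in Y25 and 43551 in MA5, against 13096 to 33477 in the others, and that of the unipolar brush cell list was 10291 and 11821, against 5288 to 12341.

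Hindbrain and pons markers were low throughout. The 9 genes of the hindbrain and pons, 7 of them Hox genes, summed to 8.87 in Y25 and 43.1 in MA5, against 9.02 to 224.5 in the others, and none of them reached a mean of 25. The midbrain list summed to 140.7 in Y25 and 178.6 in MA5, against a median of 188.6 in the others, and 0 of its 4 genes tested had both libraries above the others. The same held for 0 of 10 cortical excitatory genes, 0 of 6 cortical interneuron genes, 0 of 5 neuronal nuclear genes, 0 of 5 oligodendrocyte genes, 0 of 5 meningeal genes, and 0 of 3 choroid plexus genes. On these lists, MA5 alone was above all 16 others in Mbp, Mobp, and Cnp of oligodendrocytes, Ttr of choroid plexus, Rbfox3, and Pvalb. Mbp had 9249 in MA5 against at most 5470, and Ttr 1843 against at most 1688. The oligodendrocyte list summed to 16901 in MA5 and 6177 in Y25, against 3321 to 13709 in the others. The single genes that passed on other lists were Prkcd of 8 thalamic genes, Il16 of 6 dentate granule cell genes, Reln of 5 Cajal-Retzius cell genes, Aqp4 of 5 astrocyte genes, and Tmem119 of 5 microglial genes. Cortical excitatory genes had a median fold of 0.714 in Y25 and 0.531 in MA5, and their summed level was 16498 in Y25 and 13026 in MA5, against 13673 to 47104 in the others. Y25 thus lay within the range of the others and MA5 just below the lowest of them. The nuclei had been sorted for NeuN, which glia and Purkinje cells are known to lack. The part of the other cerebellar cell types in the values of the 10 genes was not tested.

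**Figure D5:**
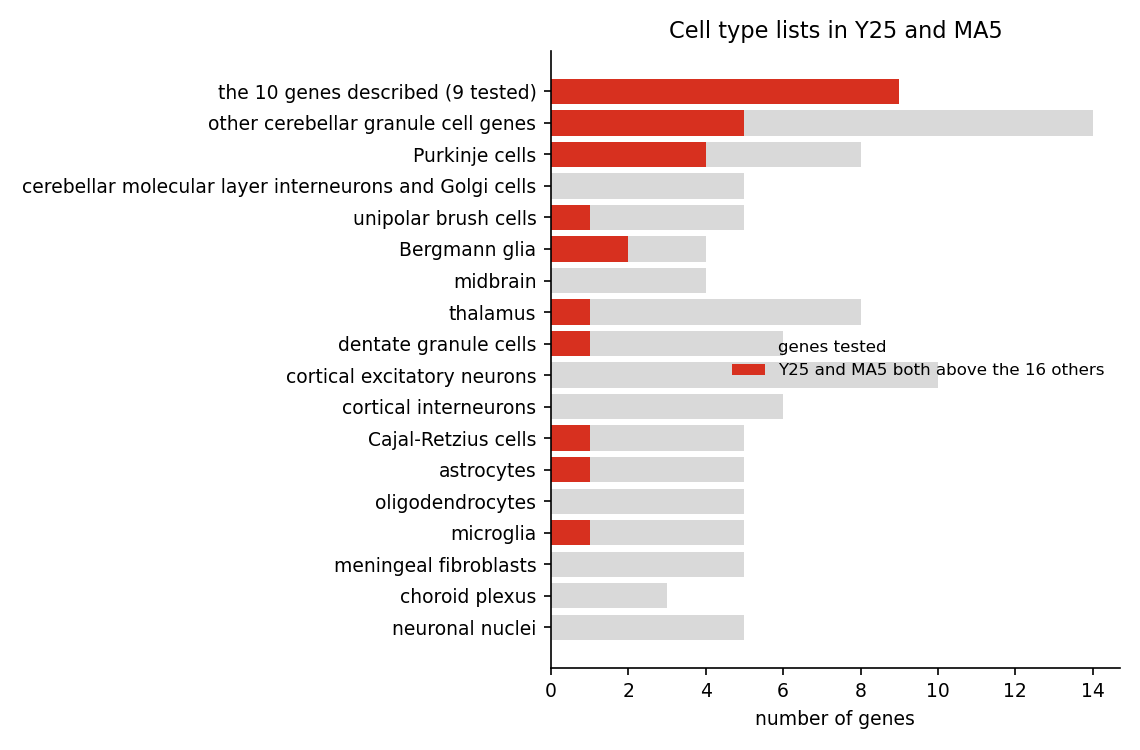
Grey bars give the number of genes tested on each cell type list, and red bars the number with Y25 and MA5 both above the 16 other libraries. The red share is 9 of 9 for the genes described, which were chosen for this pattern, 5 of 14 for other granule cell genes, and 4 of 8 for Purkinje cell genes.

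Relatives of the 10 genes showed which paralogs took part. Zic2, the neighbor of Zic5, had 61.3 in Y25 and 89.9 in MA5, above the 0 to 30.3 of the others. Cbln2 had 523 and 359 against a median of 630, and Cbln4 had 966 and 395 against a median of 627, so these cerebellins of forebrain neurons were within the range of the other libraries in both. Cbln1 and Cbln3 were thus high in Y25 and MA5, and Cbln2 and Cbln4 were not.

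Genes outside the lists were ranked by the same pattern, as the log2 ratio of the lower of Y25 and MA5 to the highest of the 16 others, each with 1 added. Gabra6 ranked first of the 378 genes with a log2 ratio of 5.31, and Cbln3, Fat2, and Zic1 ranked 4, 5, and 6. The genes most like it were Cnpy1 with 7101 in Y25 and 12083 in MA5 against 4.42 to 215 in the others, and Crtam with 6179 and 10055 against 9.43 to 201. Svep1, Gprc5c, Il20rb, Chd7, Ptpn22, Casq2, and Afap1l2 were also among the 10 most alike. MA5 was higher than Y25 in 8 of these 9 named genes, with ratios from 1.34 for Svep1 to 5.15 for Il20rb, and lower in Casq2 with a ratio of 0.887. A log2 ratio over 1 was found in 58 genes.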

How the data were processed

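Nuclei of the MEC were sorted by NeuN and Hoechst and sequenced in 18 libraries. The deposited signal is a normalized gene value: the authors estimated counts per gene with Kallisto, introns included, and divided them by DESeq2 size factors. The methods name mm39 and the submitters' processing notes mm10; coordinates here are on GRCm39. The values are not whole reads, so depth, counting intervals, and count models were not available. Age groups came from the labels and sex from the study's source data.

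Age groups were compared with limma 3.58.1 (trend) in R 4.3.3 on log2(value + 1), over 17985 genes with a mean of at least 25, with a term for sex, all 18 libraries in the fit, and Benjamini-Hochberg adjustment. Fold changes are on the log2(value + 1) scale, which understates changes of low genes. Single genes were also tested by a two-sided exact permutation of mice over groups. Libraries are separate mice. Correlations used 100000 permutations with a seed of 1. Python 3.11.15, numpy 2.4.6, pandas 2.3.3, and scipy 1.17.1 were used.

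The genes and lists were chosen with earlier results of these data known. The genes named are the 10, those on the lists, Zic2, Cbln2, and Cbln4, and the 10 genes outside the lists with the largest ratio of Y25 and MA5 to the highest other library. A few genes under these rules are not reported here. In simulated data for aged against young mice, limma was tested with known changes. Alternatives were other scalings, filters, pseudocounts, and models, and libraries left out. Fits without Y25 and MA5 that also changed another setting, and exact tests without them, were chosen after seeing the data.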

Additional observations from a re-analysis of the deposited data

Results flagged for a closer look

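In each age group of 6, the highest or lowest library was compared with its nearest neighbor for the 10 genes, their summed share, and 3 relatives, 42 sets in all. A gap above Dixon's 95% limit was found in 26, of which 23 concerned Y25 or MA5. Chance gives about 1 in 20 sets, but the 10 genes were chosen for their values in Y25 and MA5, so the gaps of these libraries in them and in their share follow from the choice and are a description. Sets from the same libraries are not independent.

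Y25 stood apart among the young in Gabra6 at 8541, Cbln3 at 5022, Fat2 at 3811, Neurod1 at 1813, Zic5 at 833, Zic1 at 728, Pax6 at 663, Zic4 at 284, Cbln1 at 238, and Zic2 at 61.3, and in the summed share at 0.0914%. MA5 stood apart among the MA mice in Gabra6 at 20442, Cbln3 at 12248, Fat2 at 9854, Neurod1 at 4718, Zic1 at 1755, Pax6 at 1600, Zic5 at 1377, Cbln1 at 825, Zic4 at 616, Zic2 at 89.9, and Barhl1 at 70.8, and in the summed share at 0.238%. The 3 sets that concerned other libraries were Fat2 in A15 at 265, Cbln2 in Y20 at 3088, and Cbln2 in MA6 at 1250.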

How the results depend on the processing

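No gene of the 10 was called by limma in any age comparison under the alternatives that tested it, and Barhl1 was tested only with no filter on low values. Exact permutation without Y25 and MA5, with no adjustment, gave 5 genes at p under 0.05 in aged against young (4.38% of all genes), 2 in MA against young (3.48%), and 0 in aged against MA mice (2.69%). With all libraries, sample weights turned the aged against young difference to -0.49 for Gabra6, -0.94 for Fat2, and -0.21 for Pax6, and left 0.10 of 1.77 for Cbln3 and 0.03 of 0.90 for Zic5. Leaving out 1 library turned it to -0.15 for Gabra6 (without Y27), and to -0.10, -0.07, and -0.13 for Fat2 (without Y20, Y28, and A15). Over single libraries left out, Gabra6 ranged from -0.15 to 2.06, Fat2 from -0.13 to 1.18, and Cbln3 from 0.95 (without Y27) to 3.23, all highest without Y25. The cause was not tested. Without Y25, MA5, and any further library, Cbln3 had a log2 difference of 2.93 to 3.72, and without Y25 and MA5 under quantile normalization it had 2.57. Without Y25, MA5, and 1 further library, Gabra6 ranged from 1.56 (without Y27) to 2.69 and Fat2 from 0.88 (without Y20) to 1.64. Pax6 ranged from 0.90 to 1.25 and Zic5 from 1.32 to 1.96. Under quantile normalization without Y25 and MA5, Gabra6 had 1.45, Fat2 0.98, Pax6 0.75, and Zic5 1.23. Of the 9 genes above the filter, of which single settings tested 7 to 9, the number higher in aged than in young mice was 2 to 9 over settings that kept Y25 or MA5, and 8 or 9 over those without both, which tested 8 or 9. For MA against young it was 4 to 9 and 7 to 9, and for aged against MA mice 0 to 8 and 6 to 9. The share of all genes higher in the same fits was not computed, and some of the genes vary together. These counts of direction are thus a description.

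The median ratio of MA5 to Y25 excess stayed between 2.42 and 2.62 over the alternatives run. With a minimum of 100 for the median of the 16 others 1 gene was at or above it in place of 6, and with a minimum of 10 it was 9. Removing the age group means left 5 correlated pairs in place of 11, and leaving out each library gave 5 (without A15) to 12 pairs, with 7 without Y20, 6 without Y23, and 7 without MA6. Of the list genes, 15 had both libraries above the others, 11 with a mean of at least 100, and 12 with the mean of at least 25 taken over the 16 others, a filter chosen after seeing the data. No paired analysis was possible because the labels give mouse identifiers and not replicate numbers, and any 2 groups have at most 1 number in common (Y20 and A20, which are different mice). Depth is unknown, so the error of values near 0 could not be given.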

Other observations

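Chd7, a chromatin remodeler, was the gene outside the lists whose ratio of MA5 to Y25 lay nearest to that of Gabra6 among the 10 most alike, at 2.41 against 2.39. It had 5346 in Y25 and 12894 in MA5, against 292 to 1197 in the 16 others. Il20rb, a cytokine receptor subunit, departed furthest, with 3943 and 20324 against 33.7 to 821. Both were singled out after their values were seen.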
